A study of Homo sapiens and Mus musculus with 18 samples.

Results

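The amino acid transporter genes described here are the protein-coding members of 7 solute carrier (SLC) families, SLC1, SLC3, SLC6, SLC7, SLC36, SLC38 and SLC43. They were chosen by symbol alone, from the GENCODE name of each gene identifier in the count tables of human and mouse gastruloid development. In human 59 of the 44910 listed genes were members, and in mouse 58 of 29720. Of these, 56 had the same symbol in both species, SLC6A18, SLC6A20 and SLC7A13 were members in human only, and Slc6a21 and Slc7a15 in mouse only. Slc6a18, Slc7a12 and Slc7a13 were not analysed here. The largest family was SLC6, with 19 human and 18 mouse members, followed in both species by SLC7 with 13, SLC38 with 11, SLC1 with 7, SLC36 with 4, SLC43 with 3 and SLC3 with 2.

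Polyadenylated RNA was sequenced from 2 replicates of each of 9 groups, 18 samples in all. Human samples covered H9 ESCs in the naive and the primed state, primed RUES2_GLR ESCs, and RA-gastruloids taken early, at 24 h, or late, at 120 h. Mouse samples, all from the E14Tg2a line, covered naive mESCs, primed epiblast-like cells (EpiLCs) and gastruloids taken early, at 72 h, or late. H9 and RUES2 are established human embryonic stem cell lines, and RUES2_GLR is a reporter derivative. Gastruloids are aggregates of stem cells that break symmetry after WNT activation by CHIR99021, a GSK3 inhibitor, and the human ones also received retinoic acid (RA). The human gastruloids came from primed RUES2_GLR cells. The mouse gastruloids were seeded from naive mESCs, so EpiLCs were not their source. Naive H9 cells were chemically reset and grown in PXGL medium in N2B27 on mouse fibroblast feeders, which were removed before collection, and primed human cells grew in StemFlex. RA-gastruloids passed through NutriStem into Essential 6 medium, and the late ones also received Matrigel. Naive mESCs were kept in 2iLif, EpiLCs in N2B27 with activin A, bFGF and serum replacement, and mouse gastruloids in N2B27. Both primed human lines shared StemFlex, early and late RA-gastruloids Essential 6, and early and late mouse gastruloids N2B27, with other additions. EpiLCs and early mouse gastruloids also shared N2B27, with activin A, bFGF and serum replacement added for EpiLCs. At the remaining steps the named medium changed with the stage, and the stage and the amino acids supplied cannot be told apart there.

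SLC transporters move amino acids across the plasma membrane and the lysosomal membrane. Some are exchangers: a light chain of the SLC7 family pairs with a heavy chain of the SLC3 family, and imports a large neutral amino acid or cystine while exporting another amino acid. Others use the sodium gradient to accumulate glutamine, glutamate, glycine or taurine, and others let cationic amino acids such as arginine and lysine enter. Proliferating stem cells depend on this uptake for protein synthesis and for mTORC1 signalling, and human and mouse pluripotent cells are sensitive to single amino acids in their medium, methionine in human and threonine in mouse being the known cases. Several SLC6 members carry creatine, betaine, GABA or monoamines rather than proteinogenic amino acids, and SLC43A3 carries purine nucleobases.

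Total counts per library ran from 3681739 to 38771193 in human, the lowest being primed RUES2_GLR replicate 2, and from 6487157 to 20052505 in mouse. Levels across samples are given as CPM, the count of a gene set to a common library total, on library sizes scaled by the trimmed mean of M values (TMM). A level is the value in replicate 1 and then in replicate 2, and levels of different genes are compared only after division by gene length, as CPM per kilobase. The naive and the primitive streak markers followed the labels of the human groups given here. The summed CPM of 7 naive markers was 3901 to 4191 in naive H9 and 90.4 to 93.9 in primed H9. That of the primitive streak markers was 1678 to 1783 in early RA-gastruloids and 6.05 to 6.06 in primed RUES2_GLR cells. Marker sums of the late and the mouse groups are not given. Naive H9 libraries also held fibroblast and trophectoderm markers: COL3A1 was at 172 to 181 CPM and DCN at 6.195 to 8.05 CPM, against 0.0477 to 0.0699 CPM and 0 in primed H9, and GATA3 was at 109 to 124 against 0.167 to 0.419 CPM. The 6 fibroblast markers summed to 664 to 684 CPM in naive H9 and 298 to 306 CPM in primed H9, and the 5 trophectoderm and amnion markers to 196 to 229 and 10.7 to 10.9 CPM. Their part in the results from naive H9 was not tested. Genes of the mitochondrial genome took 21.4% and 22.4% of the counts in primed RUES2_GLR, against 2.68% to 6.71% in the other human libraries and 1.64% to 3.65% in mouse.

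**Figure D1:**
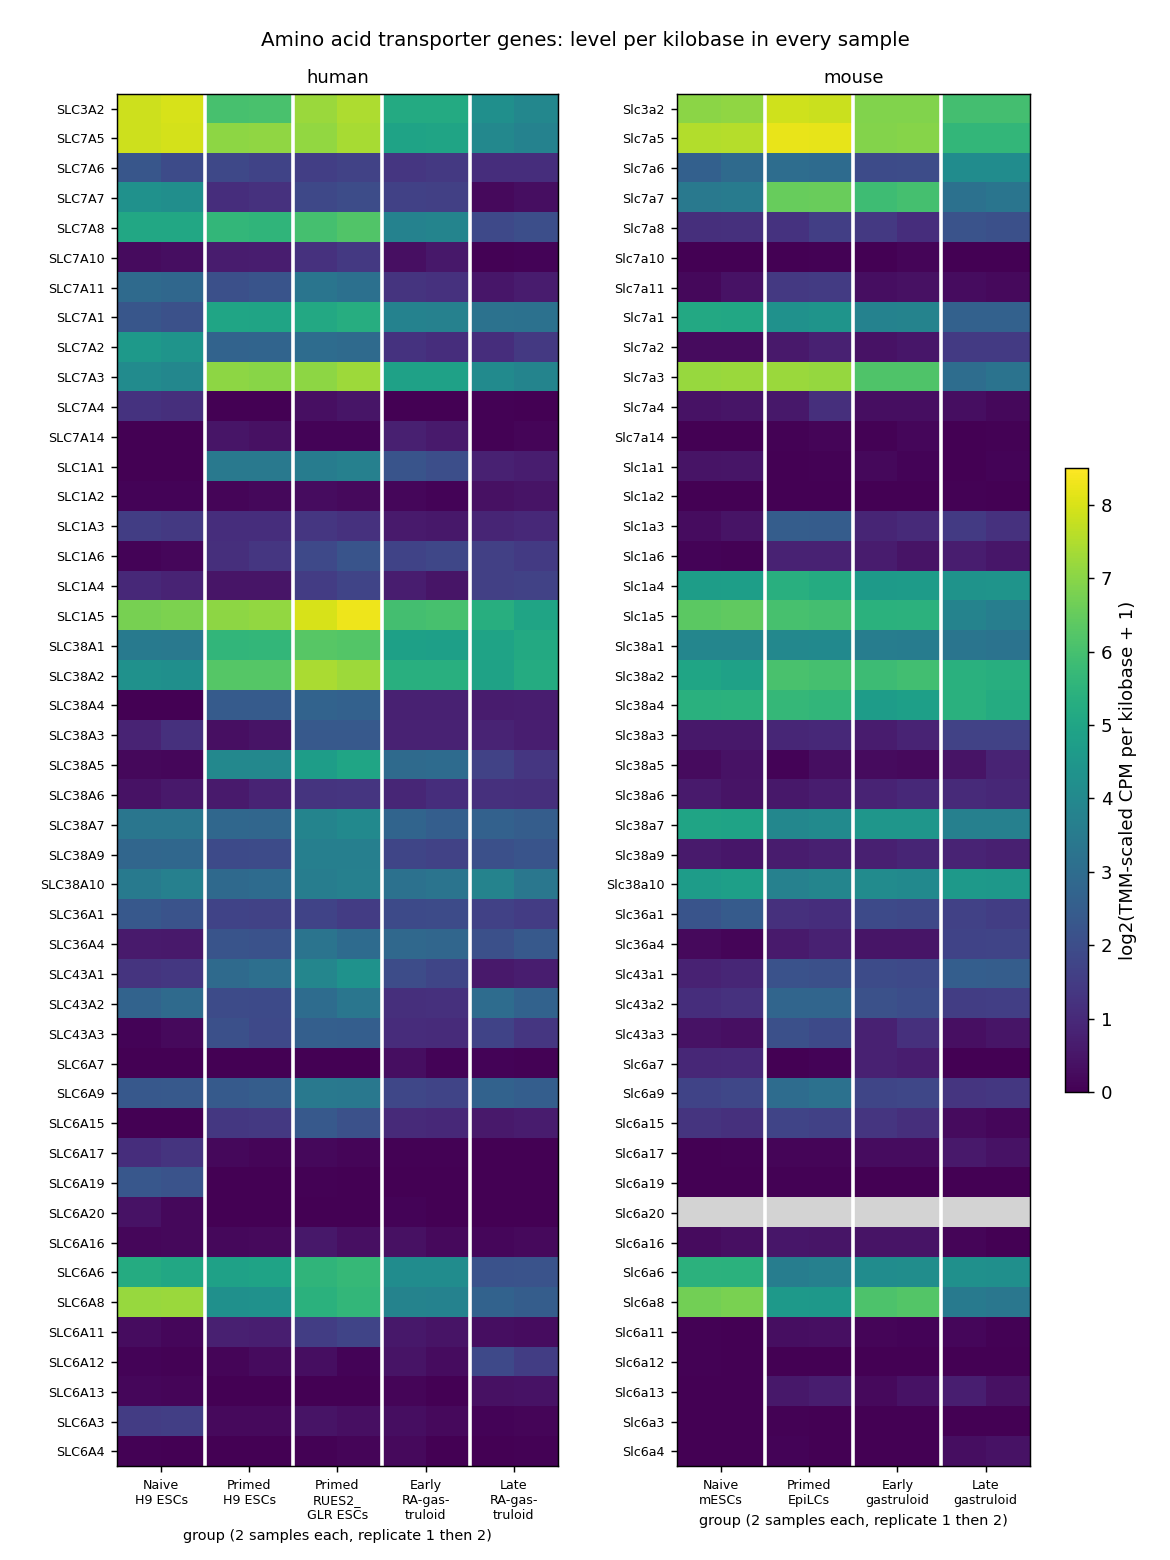
Level of the members that passed the low-count filter in at least 1 species, as log2(TMM-scaled CPM per kilobase + 1), in each human (left) and mouse (right) sample, with members in order of their role. SLC3A2, SLC7A5 and SLC1A5 are bright in the human stem cell columns and darker in both RA-gastruloid columns; grey marks a gene that is no mouse member.

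A small part of the families carried most of the transporter RNA. At a group mean of at least 10 CPM, 22 of 59 members were present in naive H9, 28 in primed H9, 32 in primed RUES2_GLR, 26 in early and 23 in late RA-gastruloids, and of the 58 mouse members 20, 23, 21 and 24 in naive mESCs, EpiLCs, early and late gastruloids. Per kilobase, the heavy chain SLC3A2 led in naive H9 at 243 ± 16.2 CPM per kilobase (SD, n = 2), and its light chain SLC7A5 followed at 239 ± 11.7, within that spread. The glutamine exchanger SLC1A5 had the highest mean in the other 4 human groups, from 283 ± 41.2 CPM per kilobase in primed RUES2_GLR to 34.7 ± 5.86 in late RA-gastruloids. In primed H9 its 135 ± 4.94 did not differ from the 134 ± 2.19 of SLC7A5 beyond the spread between replicates. The same held in late RA-gastruloids for SLC38A2, at 32.4 ± 5.38, and SLC38A1, at 32.1 ± 4.09, both of which were above SLC1A5 in replicate 2. In mouse Slc7a5 led in naive mESCs at 185 ± 4.99, in EpiLCs at 293 ± 1.06 and in early gastruloids at 121 ± 2.04 CPM per kilobase, and Slc3a2 in late gastruloids at 61.4 ± 0.0580.

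The summed TMM-scaled CPM of all members was 5438 ± 141 in naive H9, 4207 ± 43.3 in primed H9, 7322 ± 412 in primed RUES2_GLR, 1972 ± 3.33 in early and 1423 ± 2.09 in late RA-gastruloids (SD, n = 2). In mouse it was 4604 ± 96.9 in naive mESCs, 5084 ± 52.7 in EpiLCs, 3429 ± 79.7 in early and 1968 ± 46.3 in late gastruloids. Transporter RNA was thus lowest in late gastruloids of both species, with the stem cell groups above both gastruloid stages. In TPM, counts divided by gene length and set to the same total in every library, mitochondrial RNA included, the sum was 2945 ± 42.7, 3499 ± 5.08, 2895 ± 149.8, 1315 ± 8.02 and 880.1 ± 9.62 TPM in the human groups in the same order, and 3058 ± 13.98, 3937 ± 32.6, 2416 ± 27.9 and 1285 ± 45.8 TPM in mouse. With the mitochondrial genes left out of the total it was 3999 ± 42.9 TPM in primed H9 and 6260 ± 418 in primed RUES2_GLR, so the order of these groups depended on the scale. Naive H9 lay above primed H9 in CPM but below it in TPM. It was also below without the mitochondrial genes, at 3612 ± 4.28 TPM, so which H9 state was higher depended on the scale too. The 5 members with the highest TPM made up 80.6 ± 1.06% of the summed TPM in naive H9 and 58.2 ± 0.9003% in early RA-gastruloids. These are bulk samples, in which fewer cells of a type and less RNA per cell cannot be told apart.

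**Figure D2:**
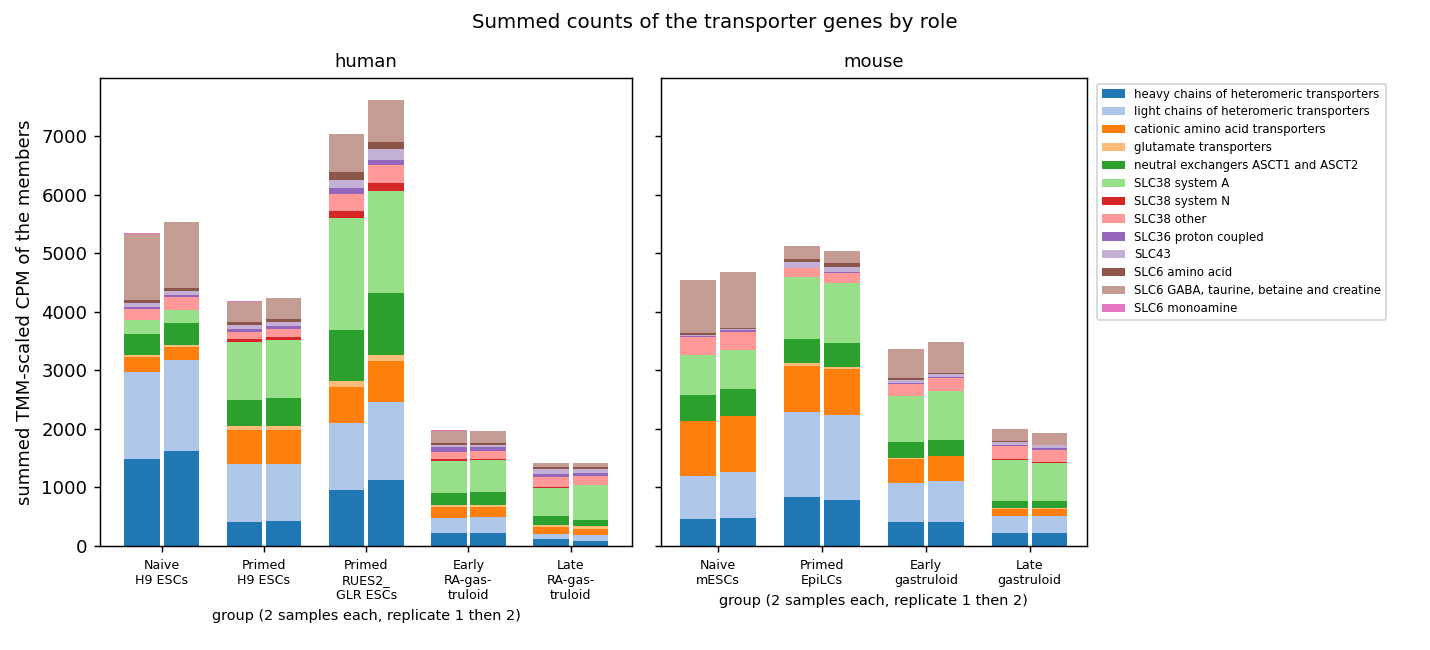
Stacked bars of the summed TMM-scaled CPM of the members in each sample, coloured by role, with the 2 replicates of a group side by side. The lowest stem cell sample is at 4177 CPM and the highest gastruloid sample at 3486 CPM.

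The members were compared between groups by edgeR's quasi-likelihood test over all 18300 human and 15003 mouse genes that passed the low-count filter. A gene was called at a Benjamini-Hochberg adjusted p under 0.05 with an absolute log2 fold change above 1, and "rose" and "fell" are used of called genes. The filter passed 45 of 59 human and 39 of 58 mouse members, and the counts that follow are over these. The other 14 human members had at most 11 counts in any library, and the other 19 mouse members at most 21. A fold change is that of the second group over the first, as log2 ± SE. The 2 biological replicates of a stage were collected together, so p-values measure only the spread between these samples.

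From naive to primed H9, 17 members rose and 14 fell, against 25.5% and 22.3% of all tested genes called higher and lower, and the median log2 fold change of the members was 0.13 against 0.00 for all genes. Between the primed lines, 23 members were higher in RUES2_GLR and 1 was lower, where 17.1% and 12.2% of all genes were called. The median over members was 1.06, beside -0.12 over all genes. The mitochondrial share moved with this comparison. With the genes of the mitochondrial genome left out, 24 members were called higher and 1 lower. From primed RUES2_GLR to early RA-gastruloids 29 members fell and 1 rose, where 17.6% of all genes were called lower and 12% higher. The median of the members was -1.75 and that of all genes 0.08, and without the mitochondrial genes 30 members were called lower and 1 higher. That count of 1 was 2 without primed RUES2_GLR replicate 2 and 4 without early RA-gastruloid replicate 2. From early to late RA-gastruloids 6 members rose and 14 fell, beside 11.8% and 13.2% of all genes, with a median of -0.62 against 0.00.

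In mouse, 16 of 39 members rose and 6 fell from naive mESCs to EpiLCs, where 17.7% and 12.1% of all genes were called, and the median of the members was 0.66 against 0.02. From naive mESCs to early gastruloids, the step that the cells themselves took, 10 rose and 6 fell, beside 16.2% and 6.81% of all genes, with medians of 0.07 and 0.03. Early gastruloids had 6 members higher and 10 lower than EpiLCs, where 11.7% and 9.24% of all genes were called, with medians of -0.61 and 0.01. From early to late gastruloids 7 rose and 12 fell, beside 20.1% and 19.1%, with medians of -0.34 and -0.03. Neighbouring comparisons share a group, so a high level in that group enters both. Primed RUES2_GLR was the higher group for 23 called members against primed H9 and for 29 against early RA-gastruloids.

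**Figure D3:**
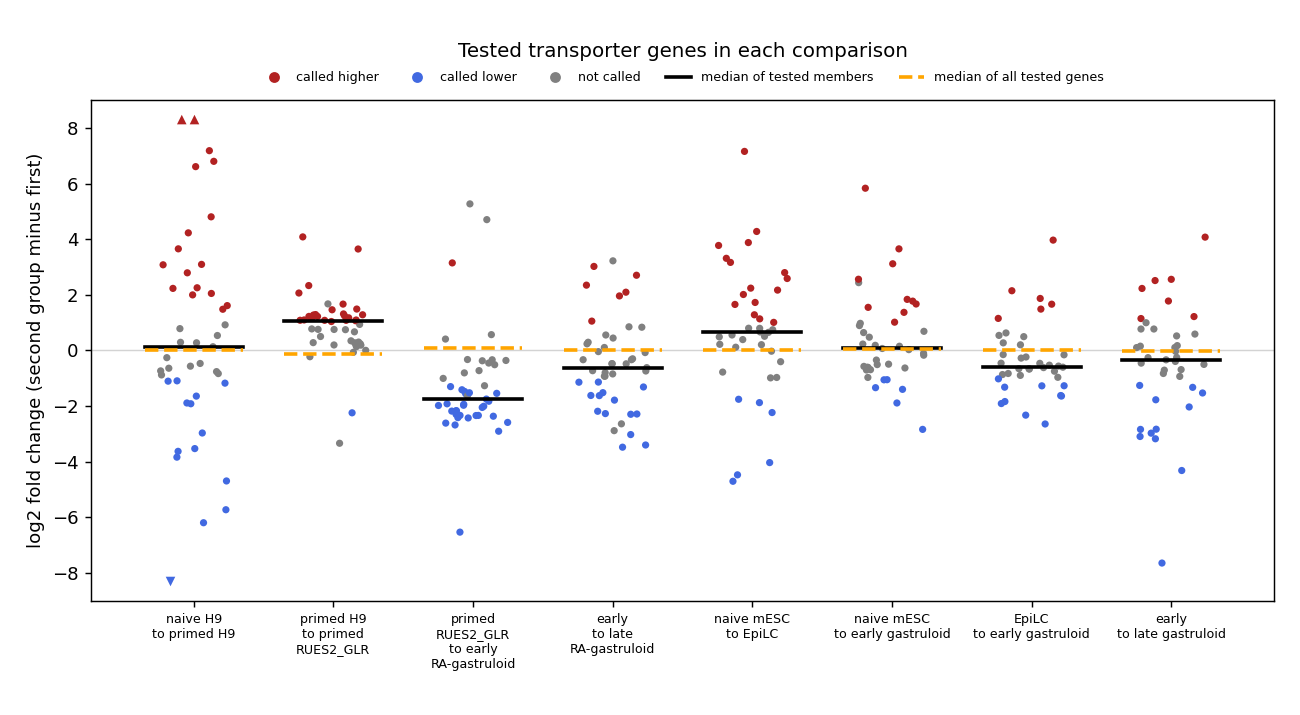
Log2 fold change of each tested member (points) in the 4 human and 4 mouse comparisons, red where called higher and blue where called lower, with the median of the members (black line) and of all tested genes (dashed orange line). Triangles stand for SLC38A4, SLC1A1 and SLC6A19, which lie beyond the axis. The black line is furthest from the orange one between primed RUES2_GLR and early RA-gastruloids.

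Among the members that fell together at that step were some with the letters CACGTG before their start site. These letters make up an E-box, which MYC and the lysosomal regulators of the TFE family are known to bind. RefSeq promoter windows of 250 bases before to 50 after a start (GRCh38.p14) were matched by symbol to 44 of 59 human members, 66 windows in all. The letters CACGTG, searched on both strands, were in 10 of these 66 windows (15.2%) and in 7.26% of all 35116 windows. The letters TGATGNAAN, a form of the amino acid response element bound by ATF4, were in 6 of 66 (9.09%) and in 3.61% of all, and the letters searched do not overlap each other. A match is a description of the letters and not a site of binding. Stretches before the start of 5 members that fell (SLC7A5, SLC7A8, SLC43A1, SLC1A5 and SLC38A5) and of SLC36A1, which was not called at 0.41 ± 0.17, adjusted p = 0.0379, are shown with the E-box letters in capitals, 5′ to 3′ on the strand of the gene:
SLC7A5, chr16:87869572-87869697, minus strand: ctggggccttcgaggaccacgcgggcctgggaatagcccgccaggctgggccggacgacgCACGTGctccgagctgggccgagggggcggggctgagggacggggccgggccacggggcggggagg
SLC7A8, chr14:23154457-23154582, minus strand: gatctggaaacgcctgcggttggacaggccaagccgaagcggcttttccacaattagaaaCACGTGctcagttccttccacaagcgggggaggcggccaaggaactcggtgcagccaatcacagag
SLC43A1, chr11:57515749-57515874, minus strand: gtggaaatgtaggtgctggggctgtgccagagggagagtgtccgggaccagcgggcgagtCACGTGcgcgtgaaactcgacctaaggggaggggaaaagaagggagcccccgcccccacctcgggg
SLC1A5, chr19:46787294-46787403, minus strand: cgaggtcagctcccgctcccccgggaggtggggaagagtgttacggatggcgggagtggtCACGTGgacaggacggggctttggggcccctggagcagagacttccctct
SLC38A5, chrX:48470401-48470510, minus strand: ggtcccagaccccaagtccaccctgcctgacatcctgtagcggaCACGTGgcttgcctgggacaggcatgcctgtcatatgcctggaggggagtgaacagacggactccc
SLC36A1, chr5:151447500-151447602, plus strand: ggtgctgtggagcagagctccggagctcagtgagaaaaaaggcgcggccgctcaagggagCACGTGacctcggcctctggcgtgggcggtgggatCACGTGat
Of the 9 tested members with the letters in a window, 6 fell from primed RUES2_GLR to early RA-gastruloids, beside 29 of all 45 tested members. SLC7A7 and SLC6A16, whose stretches are not shown, also held the letters and were not called at that step, at -0.34 and -0.81. SLC1A5, a glutamine carrier, held both sets of letters, before different annotated starts. The stretch with the amino acid response letters in capitals reads as follows:
SLC1A5, chr19:46784843-46784971, minus strand: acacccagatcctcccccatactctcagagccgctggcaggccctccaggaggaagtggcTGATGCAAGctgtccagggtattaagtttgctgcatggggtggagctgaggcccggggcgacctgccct
SLC3A2, SLC7A1, SLC38A1, SLC1A4 and SLC1A3 were the other members with these letters. They and SLC1A5 all fell from primed RUES2_GLR to early RA-gastruloids, beside 29 of all 45 tested members. Whether either set of letters goes with the fall was not tested.

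The heteromeric transporters were among the most abundant members. SLC3A2, the heavy chain of most of them, lies on chromosome 11, from 62856004 to 62888880 in GRCh38, and was at 1480 and 1626 CPM in naive H9, 415 and 422 in primed H9, 952 and 1125 in primed RUES2_GLR, 227 and 229 in early and 114 and 91.4 CPM in late RA-gastruloids. Both naive H9 replicates lay above all other human samples and both late replicates below them. SLC3A2 fell from naive to primed H9 (-1.89 ± 0.11, adjusted p = 5.72e-16), was higher in RUES2_GLR than in primed H9 (1.31 ± 0.11, adjusted p = 1.04e-11), and fell from RUES2_GLR to early RA-gastruloids (-2.18 ± 0.11, adjusted p = 1.05e-16). From early to late RA-gastruloids it fell by 1.14 ± 0.11 on the log2 scale (adjusted p = 4.43e-10), a change of -0.98 without late replicate 2. In mouse Slc3a2 was at 454 and 481 CPM in naive mESCs, 839.6 and 786 in EpiLCs, 413 and 416 in early and 217 and 216 CPM in late gastruloids. Here EpiLCs were highest, and naive mESCs and early gastruloids were closer to each other. No mouse step passed the fold limit, with 0.80 from naive mESCs to EpiLCs and -0.94 from early to late.

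SLC7A5 (LAT1), the light chain that imports leucine and other large neutral amino acids, is encoded on chromosome 16, from 87830023 to 87869507, and was at 1100 and 1178 CPM in naive H9, 631 and 646 in primed H9, 659 and 789.8 in primed RUES2_GLR, 141 and 143.8 in early and 68.9 and 59.4 CPM in late RA-gastruloids. The RA-gastruloid samples did not overlap any stem cell sample. It fell from RUES2_GLR to early (-2.34 ± 0.11, adjusted p = 1.05e-17) and again to late RA-gastruloids (-1.15 ± 0.11, adjusted p = 3.09e-10), while naive and primed H9 differed by -0.84 ± 0.10, adjusted p = 1.74e-08, under the fold limit. In mouse Slc7a5 was at 674 and 699.9 CPM in naive mESCs, 1090 and 1084 in EpiLCs, 444 and 455 in early and 178 and 179.7 CPM in late gastruloids, and it fell from early to late gastruloids (-1.33 ± 0.05, adjusted p = 4.39e-31). Its level in early gastruloids was also under that in EpiLCs (-1.27 ± 0.05, adjusted p = 5.96e-31). The pseudogene copies SLC7A5P1 and SLC7A5P2 share sequence with SLC7A5, and how reads were split between them is uncertain.

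SLC7A8 (LAT2), a second light chain for neutral amino acids, fell with SLC7A5 in the human gastruloids but not in mouse. Its levels were 197 and 198 CPM in naive H9, 292 and 279.5 in primed H9, 377 and 432 in primed RUES2_GLR, 76.1 and 80.0 in early and 16.1 and 18.4 CPM in late RA-gastruloids. It fell at both gastruloid steps, by 2.37 ± 0.11 and by 2.19 ± 0.12 on the log2 scale (adjusted p = 8.61e-18 and 7.21e-16). Mouse Slc7a8 was low throughout, at 6.14 and 6.28 CPM in naive mESCs, 6.80 and 9.94 in EpiLCs, 8.20 and 5.89 in early and 17.6 and 16.1 CPM in late gastruloids, and rose from early to late gastruloids (1.21 ± 0.17, adjusted p = 4.03e-09). The early to late steps of the species differed by 3.26 ± 0.21, adjusted p = 1.26e-15, as mouse minus human.

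SLC7A7 (y+LAT1), the light chain through which cationic amino acids leave the cell in exchange for neutral ones, moved in opposite directions from naive to primed in the species, and fell in both from early to late. In human it was at 99.7 and 93.7 CPM in naive H9, 6.15 and 7.10 in primed H9, 13.7 and 15.6 in primed RUES2_GLR, 11.3 and 11.2 in early and 0.921 and 1.32 CPM in late RA-gastruloids. It fell from naive to primed H9 (-3.84 ± 0.14, adjusted p = 2.83e-21) and from early to late RA-gastruloids (-3.40 ± 0.23, adjusted p = 1.23e-13). It was higher in RUES2_GLR than in primed H9 (1.079 ± 0.17, adjusted p = 1.59e-06), a log2 difference of 0.97 without primed H9 replicate 1. Mouse Slc7a7 was at 32.2 and 35.3 CPM in naive mESCs, 301 and 308 in EpiLCs, 191 and 210.1 in early and 26.9 and 29.5 CPM in late gastruloids, with the naive and late samples low and the EpiLC and early samples high. It rose from naive mESCs to EpiLCs (3.16 ± 0.07, adjusted p = 6.59e-42) and to early gastruloids (2.56 ± 0.07, adjusted p = 8.85e-37) and fell to late gastruloids (-2.84 ± 0.08, adjusted p = 2.16e-38). The naive to primed steps differed by 7.11 ± 0.15, adjusted p = 1.60e-29.

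SLC7A6 (y+LAT2), the related light chain, was at 29.0 and 21.7 CPM in naive H9, 19.9 and 17.0 in primed H9, 15.1 and 16.6 in primed RUES2_GLR, 11.5 and 12.7 in early and 8.63 and 8.77 CPM in late RA-gastruloids, and was called in no human comparison. Its reads are uncertain, since 44.4% of its exonic bases overlap SLC7A6OS on the other strand. Mouse Slc7a6 was at 23.3 and 30.9 CPM in naive mESCs, 33.0 and 31.6 in EpiLCs, 13.1 and 13.5 in early and 76.0 and 75.2 CPM in late gastruloids. Both late replicates lay above all other mouse samples, and the gene rose from early to late (2.51 ± 0.10, adjusted p = 2.81e-30) after a fall from naive mESCs to early gastruloids (-1.06 ± 0.12, adjusted p = 7.91e-12), which was -0.81 without naive replicate 2. Mouse Slc7a7 and Slc7a6 thus moved in opposite directions from early to late gastruloids.

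SLC7A11 (xCT), which imports cystine in exchange for glutamate and supplies glutathione synthesis, was at 64.7 and 58.6 CPM in naive H9, 31.2 and 35.3 in primed H9, 85.7 and 75.8 in primed RUES2_GLR, 13.7 and 12.8 in early and 4.22 and 5.30 CPM in late RA-gastruloids. RUES2_GLR was highest, and the late RA-gastruloids were lowest. It was higher in RUES2_GLR than in primed H9 (1.29 ± 0.12, adjusted p = 2.63e-10), and fell to early (-2.62 ± 0.14, adjusted p = 4.05e-16) and to late RA-gastruloids (-1.52 ± 0.18, adjusted p = 1.63e-08). Mouse Slc7a11 was at 1.81 and 4.49 CPM in naive mESCs, 22.8 and 24.4 in EpiLCs, 3.51 and 4.22 in early and 3.04 and 2.38 CPM in late gastruloids, so that only EpiLCs passed 10 CPM. It rose from naive mESCs to EpiLCs (2.80 ± 0.20, adjusted p = 1.51e-18), and early gastruloids were below EpiLCs (-2.65 ± 0.17, adjusted p = 6.45e-20). The heavy chain SLC3A1, with its light chain SLC7A9, is the transporter of kidney and gut, and neither passed the filter in either species.

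**Figure D4:**
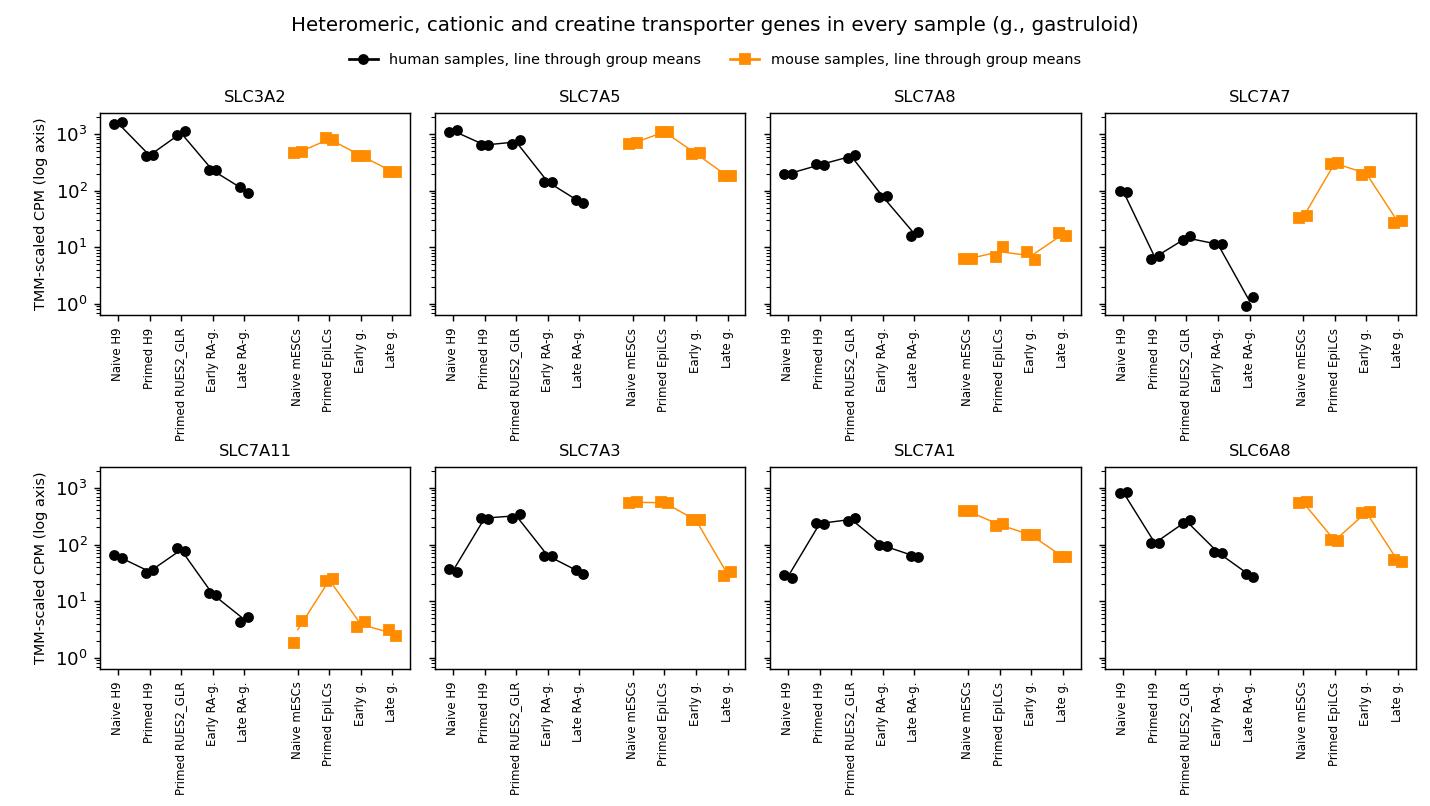
TMM-scaled CPM (log axis) of 8 members in every human (black circles) and mouse (orange squares) sample, with a line through the group means. SLC3A2, SLC7A5, SLC7A8 and SLC7A11 step down from primed RUES2_GLR to both RA-gastruloid groups, while mouse Slc7a7 is highest in EpiLCs and Slc6a8 is lower there than in the groups on either side.

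The cationic amino acid transporters, which carry arginine, lysine and ornithine without a heavy chain, differed between the naive and primed H9 states. SLC7A1 (CAT1), the widespread form, was at 29.3 and 25.8 CPM in naive H9, 235 and 235 in primed H9, 263 and 293 in primed RUES2_GLR, 97.1 and 95.3 in early and 63.7 and 61.2 CPM in late RA-gastruloids. SLC7A3 (CAT3) was at 36.8 and 32.5 CPM in naive H9, 298 and 287 in primed H9, 298 and 347 in primed RUES2_GLR, 63.5 and 63.3 in early and 36.1 and 29.9 CPM in late RA-gastruloids. In both, the naive H9 replicates lay under those of primed H9 and RUES2_GLR, and both rose from naive to primed H9, by 3.09 ± 0.11, adjusted p = 6.17e-21 for SLC7A1 and by 3.08 ± 0.12, adjusted p = 2.17e-20 for SLC7A3. Both fell from RUES2_GLR to early RA-gastruloids (-1.53 ± 0.11, adjusted p = 2.43e-13 and -2.34 ± 0.12, adjusted p = 6.09e-17). SLC7A2 (CAT2), an inducible form, ran the other way between the H9 states.

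SLC7A2 was at 181 and 158 CPM in naive H9, 44.03 and 45.4 in primed H9, 55.5 and 52.3 in primed RUES2_GLR, 10.95 and 9.29 in early and 9.26 and 13.2 CPM in late RA-gastruloids. It was highest in naive H9, and fell to primed H9 (-1.92 ± 0.12, adjusted p = 5.85e-15) and from RUES2_GLR to early RA-gastruloids (-2.42 ± 0.16, adjusted p = 3.34e-14). In mouse, Slc7a1 was at 388 and 385 CPM in naive mESCs, 215 and 233 in EpiLCs, 145 and 148 in early and 60.9 and 61.1 CPM in late gastruloids, and Slc7a3 at 549.8 and 565 CPM in naive mESCs, 563 and 530.4 in EpiLCs, 267 and 269 in early and 27.4 and 32.2 CPM in late gastruloids. The naive mESCs were thus no lower than EpiLCs in either gene, with log2 fold changes of -0.78 and -0.03 to EpiLCs that were not called. Slc7a3 fell from early to late gastruloids (-3.18 ± 0.07, adjusted p = 2.60e-43) and so did Slc7a1 (-1.26 ± 0.07, adjusted p = 6.48e-25). Slc7a2 was at 1.81 and 1.79 CPM in naive mESCs, 4.58 and 6.71 in EpiLCs, 2.91 and 4.05 in early and 15.5 and 15.9 CPM in late gastruloids, and rose at the same step (2.23 ± 0.20, adjusted p = 4.04e-15). The naive to primed steps of the species differed by -3.77 ± 0.13, adjusted p = 4.49e-24 for SLC7A1 and by -3.001 ± 0.13, adjusted p = 6.32e-21 for SLC7A3.

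SLC7A14 and SLC7A4, relatives of the cationic carriers, were low. SLC7A14 was at 0.0523 and 0 CPM in naive H9, 4.05 and 3.05 in primed H9, 0.737 and 0.637 in primed RUES2_GLR, 7.30 and 5.45 in early and 0.436 and 0.815 CPM in late RA-gastruloids. It was the only member that rose from RUES2_GLR to early RA-gastruloids (3.14 ± 0.42, adjusted p = 1.20e-07) and the only one lower in RUES2_GLR than in primed H9 (-2.25 ± 0.43, adjusted p = 4.20e-05), under the criteria used here, and it fell again to late RA-gastruloids (-3.48 ± 0.36, adjusted p = 1.25e-09). Its 1 count in naive H9 against 186 in primed H9 gave a ratio of 121, with a 95% counting interval of 21.4 to 4799. SLC7A4, named after its values were seen, had 116 counts in naive H9 and 2 in primed H9, a ratio of 89.3, with a 95% counting interval of 24.2 to 746.

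Among the glutamate transporters, SLC1A1 (EAAC1), a carrier of glutamate and cysteine, set naive apart from primed H9. It was at 0.0523 and 0.0574 CPM in naive H9, 39.4 and 39.4 in primed H9, 43.2 and 48.1 in primed RUES2_GLR, 14.5 and 12.2 in early and 2.86 and 2.45 CPM in late RA-gastruloids. The naive replicates held 2 counts together against 2218 in primed H9, a ratio of 721, with a 95% counting interval of 199 to 5954. It fell from RUES2_GLR to early (-1.75 ± 0.15, adjusted p = 1.61e-11) and to late RA-gastruloids (-2.30 ± 0.19, adjusted p = 1.40e-11). Mouse Slc1a1 was at 3.07 and 3.23 CPM in naive mESCs, 0.148 and 0.197 in EpiLCs, 1.04 and 0.528 in early and 0 and 0.447 CPM in late gastruloids, low in all samples and highest in naive mESCs, the reverse of human. Its 58 counts in naive mESCs against 4 in EpiLCs gave a ratio of 17.4, with a 95% counting interval of 6.44 to 66.0. Of its exonic bases 31.9% overlap Spata6l on the other strand, and its calls between early gastruloids and EpiLCs and between early and late gastruloids were lost without early replicate 1 (adjusted p = 0.245 and 0.278) and with DESeq2 (adjusted p = 0.0643 and 0.0952). The first was also lost without EpiLC replicate 2 (adjusted p = 0.0992) and the second without late replicate 1 (adjusted p = 0.406).

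SLC1A3 (GLAST), a glutamate transporter known from glia, was at 40.8 and 35.8 CPM in naive H9, 24.2 and 24.8 in primed H9, 33.0 and 27.7 in primed RUES2_GLR, 11.5 and 9.49 in early and 17.6 and 20.3 CPM in late RA-gastruloids, and fell from RUES2_GLR to early RA-gastruloids (-1.56 ± 0.16, adjusted p = 1.17e-09). Mouse Slc1a3 was at 1.95 and 3.14 CPM in naive mESCs, 39.5 and 39.3 in EpiLCs, 7.31 and 8.62 in early and 14.8 and 11.5 CPM in late gastruloids. EpiLCs stood well above the other mouse groups, and the gene rose from naive mESCs to EpiLCs (3.88 ± 0.17, adjusted p = 1.03e-27) and to early gastruloids (1.55 ± 0.22, adjusted p = 2.49e-08), which were below EpiLCs (-2.33 ± 0.12, adjusted p = 5.29e-24). SLC1A2 (GLT-1), the other main glial form, stayed under 10 CPM in all human samples, and rose from early to late RA-gastruloids (1.96 ± 0.29, adjusted p = 1.01e-06), where it was at 2.21 and 1.51 and then 6.59 and 8.26 CPM. Its fall from RUES2_GLR to early RA-gastruloids (-1.30 ± 0.34, adjusted p = 0.00149) was lost without RUES2_GLR replicate 1, at an adjusted p of 0.126. Mouse Slc1a2 did not pass the filter.

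The neutral exchangers differed from each other. SLC1A5 (ASCT2), which takes up glutamine, was at 359 and 376 CPM in naive H9, 438 and 461 in primed H9, 845 and 1039 in primed RUES2_GLR, 202 and 216 in early and 129 and 102 CPM in late RA-gastruloids. RUES2_GLR was highest, and the RA-gastruloids lay below all stem cell samples. It was higher in RUES2_GLR than in primed H9 (1.06 ± 0.11, adjusted p = 1.62e-09), a log2 difference of 0.99 without primed H9 replicate 1, and fell to early RA-gastruloids (-2.17 ± 0.12, adjusted p = 3.06e-16). An antisense gene with no symbol overlaps 23.4% of its exonic bases. Mouse Slc1a5 was at 341 and 353 CPM in naive mESCs, 265 and 258 in EpiLCs, 175 and 179 in early and 54.5 and 48.1 CPM in late gastruloids and fell from early to late gastruloids (-1.78 ± 0.07, adjusted p = 1.68e-31).

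SLC1A4 (ASCT1), which carries alanine, serine and cysteine, was much lower in human, at 6.74 and 5.68 CPM in naive H9, 2.66 and 2.79 in primed H9, 12.7 and 16.2 in primed RUES2_GLR, 4.13 and 2.83 in early and 14.4 and 15.5 CPM in late RA-gastruloids. It rose from early to late RA-gastruloids (2.09 ± 0.21, adjusted p = 1.02e-09), where SLC1A5 changed by -0.85 and was not called, and it had fallen from RUES2_GLR to early (-1.98 ± 0.23, adjusted p = 1.30e-08). Mouse Slc1a4 was at 99.2 and 104 CPM in naive mESCs, 157 and 143 in EpiLCs, 92.5 and 96.5 in early and 77.6 and 79.8 CPM in late gastruloids and was called in no comparison. Per kilobase SLC1A5 stood above SLC1A4 in every human sample, whereas in late mouse gastruloids Slc1a4, at 19.8 and 20.3 CPM per kilobase, stood above Slc1a5, at 13.1 and 11.5.

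The SLC38 family carries glutamine, alanine and other small neutral amino acids with sodium. Of the system A members, SLC38A1 (SNAT1) was at 104 and 98.0 CPM in naive H9, 479 and 480.3 in primed H9, 782 and 740.1 in primed RUES2_GLR, 275 and 271 in early and 293 and 351 CPM in late RA-gastruloids, and SLC38A2 (SNAT2), known to be induced when amino acids run short, was at 122 and 116 CPM in naive H9, 486 and 497 in primed H9, 1114 and 980.3 in primed RUES2_GLR, 259 and 261 in early and 186 and 236 CPM in late RA-gastruloids. Naive H9 was lowest for both. They rose from naive to primed H9 (2.25 ± 0.11, adjusted p = 2.84e-18 and 2.05 ± 0.11, adjusted p = 9.84e-17) and fell from RUES2_GLR to early RA-gastruloids (-1.48 ± 0.10, adjusted p = 1.77e-13 and -2.01 ± 0.11, adjusted p = 5.08e-16). From early to late neither was called, at 0.23 and -0.30, whereas SLC3A2 and SLC7A5 fell at that step.

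SLC38A4 (SNAT4), a placental form, was at 0 and 0 CPM in naive H9, 18.2 and 18.5 in primed H9, 22.9 and 21.98 in primed RUES2_GLR, 2.98 and 3.03 in early and 2.28 and 2.55 CPM in late RA-gastruloids. No count was found in either naive replicate, where the floor of 3 counts per library allows up to 0.164 CPM, so primed H9 was at least 112-fold higher. It fell from RUES2_GLR to early RA-gastruloids (-2.91 ± 0.21, adjusted p = 5.04e-13). In mouse it was among the 10 highest members per kilobase in every group, at 176 and 181 CPM in naive mESCs, 209 and 204 in EpiLCs, 107 and 115 in early and 176 and 154 CPM in late gastruloids. No mouse comparison called it, and the naive to primed steps of the species differed by -10.72 ± 0.44, adjusted p = 3.75e-21, a fitted value that depends on the prior count. Mouse Slc38a2 was at 270.4 and 249 CPM in naive mESCs, 582 and 556 in EpiLCs, 489 and 529 in early and 367 and 349 CPM in late gastruloids and rose from naive mESCs to EpiLCs (1.13 ± 0.05, adjusted p = 8.24e-27), and Slc38a1, at 241 and 242 CPM in naive mESCs, 255 and 267 in EpiLCs, 190.3 and 189 in early and 153 and 147 CPM in late gastruloids, was called nowhere.

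The system N members, which move glutamine in either direction, were SLC38A3 and SLC38A5. SLC38A5 (SNAT5) was at 0.575 and 0.459 CPM in naive H9, 59.3 and 58.1 in primed H9, 102 and 126 in primed RUES2_GLR, 26.7 and 27.3 in early and 8.82 and 6.22 CPM in late RA-gastruloids. Naive H9 was near the floor and RUES2_GLR highest. It rose from naive to primed H9 (6.80 ± 0.22, adjusted p = 1.98e-22) and fell to early (-2.05 ± 0.14, adjusted p = 6.39e-14) and late RA-gastruloids (-1.79 ± 0.16, adjusted p = 5.10e-11). Mouse Slc38a5 did not pass the filter and had at most 12 counts in a library. SLC38A3 (SNAT3) was at 3.19 and 5.11 CPM in naive H9, 1.05 and 1.43 in primed H9, 16.5 and 16.6 in primed RUES2_GLR, 3.07 and 3.03 in early and 3.20 and 2.55 CPM in late RA-gastruloids, with RUES2_GLR above all other groups (3.64 ± 0.24, adjusted p = 7.44e-14 over primed H9). Mouse Slc38a3 was at 2.51 and 2.42 CPM in naive mESCs, 4.73 and 5.07 in EpiLCs, 2.96 and 4.13 in early and 11.7 and 11.8 CPM in late gastruloids, highest in late gastruloids (1.77 ± 0.21, adjusted p = 4.68e-11 over early). Its rise from naive mESCs to EpiLCs (1.007 ± 0.28, adjusted p = 0.00129) lay at the fold limit and was 0.94 without EpiLC replicate 2 and 0.97 without naive replicate 2.

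SLC38A9, the lysosomal arginine sensor upstream of mTORC1, was at 53.1 and 53.6 CPM in naive H9, 24.0 and 25.4 in primed H9, 103 and 104 in primed RUES2_GLR, 21.1 and 19.6 in early and 28.4 and 31.7 CPM in late RA-gastruloids. RUES2_GLR was again highest. It fell from naive to primed H9 (-1.11 ± 0.11, adjusted p = 4.27e-10), was higher in RUES2_GLR (2.06 ± 0.12, adjusted p = 2.54e-15), and fell to early RA-gastruloids (-2.34 ± 0.13, adjusted p = 3.44e-16). Mouse Slc38a9, at 8.93 and 6.91 CPM in naive mESCs, 9.31 and 11.6 in EpiLCs, 11.6 and 13.7 in early and 13.1 and 11.02 CPM in late gastruloids, was called in no comparison. SLC36A1 (PAT1), a proton-coupled exporter of the lysosome, was at 28.4 and 24.6 CPM in naive H9, 15.7 and 15.6 in primed H9, 15.8 and 12.7 in primed RUES2_GLR, 19.5 and 19.9 in early and 15.0 and 12.9 CPM in late RA-gastruloids and called in no human comparison, while mouse Slc36a1, at 20.2 and 25.1 CPM in naive mESCs, 7.10 and 6.65 in EpiLCs, 15.4 and 14.7 in early and 12.02 and 10.7 CPM in late gastruloids, was lowest in EpiLCs (-1.76 ± 0.15, adjusted p = 1.58e-15 from naive mESCs). SLC36A4 (PAT4) rose from naive to primed H9 (2.79 ± 0.16, adjusted p = 2.68e-16), with levels of 5.02 and 4.93 and then 35.6 and 33.5 CPM. Mouse Slc36a4 was at 0.977 and 0.538 CPM in naive mESCs, 3.40 and 4.80 in EpiLCs, 2.52 and 2.64 in early and 15.1 and 15.2 CPM in late gastruloids, and it rose from early to late gastruloids (2.55 ± 0.21, adjusted p = 2.39e-16).

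The SLC43 carriers let branched-chain and other neutral amino acids equilibrate, apart from the nucleobase carrier SLC43A3. SLC43A2 (LAT4) was at 58.1 and 70.1 CPM in naive H9, 30.6 and 29.4 in primed H9, 75.2 and 95.9 in primed RUES2_GLR, 12.8 and 13.3 in early and 74.2 and 57.5 CPM in late RA-gastruloids, with the early RA-gastruloids below all other human groups. It fell from RUES2_GLR to early (-2.68 ± 0.16, adjusted p = 2.70e-15) and rose to late RA-gastruloids (2.34 ± 0.15, adjusted p = 3.86e-14). SLC43A1 (LAT3) was at 5.07 and 5.68 CPM in naive H9, 23.4 and 26.6 in primed H9, 49.7 and 66.9 in primed RUES2_GLR, 10.2 and 8.58 in early and 1.79 and 2.14 CPM in late RA-gastruloids, and it fell at the same first step (-2.59 ± 0.17, adjusted p = 3.34e-14) and again at the second (-2.29 ± 0.24, adjusted p = 1.31e-09). These relatives thus moved in opposite directions from early to late RA-gastruloids. Mouse Slc43a2 was at 11.4 and 13.2 CPM in naive mESCs, 59.3 and 58.6 in EpiLCs, 33.3 and 30.7 in early and 19.4 and 19.96 CPM in late gastruloids, and Slc43a1 at 4.33 and 4.93 CPM in naive mESCs, 19.7 and 18.5 in EpiLCs, 16.4 and 15.5 in early and 27.4 and 27.1 CPM in late gastruloids. Both rose from naive mESCs to EpiLCs (2.24 ± 0.11, adjusted p = 5.56e-26 and 2.01 ± 0.17, adjusted p = 3.39e-16), and neither was called from early to late. SLC43A3 rose from naive to primed in human (4.80 ± 0.28, adjusted p = 7.55e-16, 0.261 and 0.688 and then 14.5 and 12.2 CPM) and in mouse (3.31 ± 0.28, adjusted p = 1.56e-15, 1.53 and 1.17 and then 14.3 and 12.4 CPM).

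Of the SLC6 carriers, SLC6A8, the creatine transporter, was at 818 and 848 CPM in naive H9, 105 and 107 in primed H9, 242 and 276 in primed RUES2_GLR, 73.8 and 71.2 in early and 30.7 and 27.0 CPM in late RA-gastruloids. Naive H9 stood apart, as the third highest member per kilobase there. It fell from naive to primed H9 (-2.97 ± 0.11, adjusted p = 3.70e-21), was higher in RUES2_GLR than in primed H9 (1.28 ± 0.11, adjusted p = 7.29e-12), and fell to early (-1.83 ± 0.11, adjusted p = 3.54e-15) and late RA-gastruloids (-1.32 ± 0.11, adjusted p = 2.86e-11). Mouse Slc6a8 was at 530.4 and 574 CPM in naive mESCs, 119 and 116 in EpiLCs, 361 and 380.4 in early and 54.2 and 48.7 CPM in late gastruloids. The fall from naive to primed was shared (-2.24 ± 0.06, adjusted p = 2.40e-39), and early gastruloids lay between EpiLCs and naive mESCs (1.66 ± 0.06, adjusted p = 9.69e-33 over EpiLCs, -0.58 against naive mESCs). From early to late it fell (-2.84 ± 0.07, adjusted p = 2.92e-42). SLC6A10P, a copy of SLC6A8, shares sequence with it.

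SLC6A6, the taurine transporter, was at 302 and 272 CPM in naive H9, 233 and 246 in primed H9, 379 and 424 in primed RUES2_GLR, 137 and 137 in early and 27.9 and 28.8 CPM in late RA-gastruloids, and fell to early (-1.55 ± 0.11, adjusted p = 9.00e-14) and late RA-gastruloids (-2.27 ± 0.11, adjusted p = 5.33e-17). Mouse Slc6a6 was at 360.3 and 358 CPM in naive mESCs, 93.6 and 101 in EpiLCs, 140.3 and 143 in early and 153 and 150.4 CPM in late gastruloids, highest in naive mESCs. It fell to EpiLCs (-1.88 ± 0.06, adjusted p = 4.82e-35) and to early gastruloids (-1.34 ± 0.06, adjusted p = 7.40e-29), and from early to late it did not pass the test (0.10 ± 0.06, adjusted p = 0.123). The early to late steps of the species differed by 2.23 ± 0.13, adjusted p = 7.82e-17.

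SLC6A9 (GlyT1), the glycine transporter, was at 21.6 and 21.9 CPM in naive H9, 22.9 and 24.5 in primed H9, 51.3 and 49.7 in primed RUES2_GLR, 13.4 and 12.4 in early and 28.1 and 25.1 CPM in late RA-gastruloids. It fell from RUES2_GLR to early RA-gastruloids (-1.97 ± 0.14, adjusted p = 4.01e-13) and rose to late (1.05 ± 0.14, adjusted p = 2.28e-07), a rise of 0.96 without late replicate 1. Mouse Slc6a9, of whose exonic bases 27.8% overlap Ccdc24, was at 11.7 and 13.01 CPM in naive mESCs, 36.4 and 41.1 in EpiLCs, 12.49 and 13.02 in early and 7.59 and 8.19 CPM in late gastruloids and was highest in EpiLCs (1.65 ± 0.12, adjusted p = 2.55e-18 over naive mESCs). SLC6A15, a carrier of branched-chain amino acids and proline, was at 0.366 and 0.0574 CPM in naive H9, 32.5 and 33.1 in primed H9, 83.9 and 66.3 in primed RUES2_GLR, 20.5 and 19.9 in early and 10.2 and 11.1 CPM in late RA-gastruloids. It rose from naive to primed H9 (7.18 ± 0.27, adjusted p = 1.07e-20) and fell to early RA-gastruloids (-1.92 ± 0.15, adjusted p = 1.92e-12). Mouse Slc6a15 was at 10.9 and 9.78 CPM in naive mESCs, 18.04 and 16.6 in EpiLCs, 11.6 and 9.50 in early and 1.52 and 0.894 CPM in late gastruloids and fell from early to late gastruloids (-3.10 ± 0.27, adjusted p = 1.93e-15).

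Of the SLC6 genes known from epithelia or nerve, SLC6A19, SLC6A17 and SLC6A3 were higher in naive than in primed H9. Other SLC6 members went the other way, among them SLC6A15 (7.18) and SLC6A11 (1.99), the latter named after its values were seen. From naive to primed H9, 1 of 6 tested SLC6 amino acid carriers rose and 3 fell. Of 6 carriers of GABA, taurine, betaine and creatine 3 rose and 2 fell, beside 25.5% and 22.3% of all tested genes. SLC6A19, the neutral amino acid transporter of gut and kidney, was at 21.0 and 18.3 CPM in naive H9 and at most 0.164 CPM in any other human sample. Its 721 counts in naive and 2 in primed H9 gave a ratio of 555, with a 95% counting interval of 153 to 4590. SLC6A17, a vesicular amino acid carrier of neurons, was at 7.58 and 9.58 CPM in naive and 0.839 and 0.619 in primed H9 (-3.63 ± 0.27, adjusted p = 1.78e-13). The dopamine transporter SLC6A3, named after its values were seen, was at 8.26 and 8.83 and 0.769 and 0.715 CPM (-3.53 ± 0.26, adjusted p = 1.12e-13). SLC6A12, the betaine and GABA transporter, rose from early to late RA-gastruloids (3.02 ± 0.30, adjusted p = 7.08e-10), from 1.92 and 1.11 to 14.2 and 10.1 CPM. Its call from naive to primed H9 (1.61 ± 0.53, adjusted p = 0.00767) was lost without naive replicate 2 (adjusted p = 0.0875) and without primed replicate 2 (adjusted p = 0.343).

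Further tested members were chosen for naming after their values were seen. SLC38A10, an intracellular relative of the SNAT carriers, ranged over 51.2 to 103 CPM in human and 79.0 to 170.4 CPM in mouse and was called in no comparison. SLC38A7 (SNAT7), which exports glutamine from lysosomes, ranged over 31.4 to 103 CPM, and was higher in RUES2_GLR than in primed H9 (1.22 ± 0.12, adjusted p = 4.34e-10) and in early RA-gastruloids (-1.42 ± 0.13, adjusted p = 4.27e-11). Mouse Slc38a7, over 49.3 to 125 CPM, was called nowhere. The glutamate transporter SLC1A6 rose from naive to primed H9 (4.23 ± 0.27, adjusted p = 7.76e-15), from 0.366 and 0.803 to 9.44 and 11.9 CPM. The GABA transporter SLC6A11 was highest in RUES2_GLR, at 12.9 and 15.9 CPM, and fell to 3.07 and 2.52 CPM in early RA-gastruloids (-2.30 ± 0.25, adjusted p = 3.04e-09). SLC7A10, a light chain for small neutral amino acids, was also highest there, at 4.09 and 5.10 CPM. SLC6A16, SLC38A6, SLC6A13 and SLC6A20 stayed under 10 CPM in every human sample.

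In mouse, low members changed as well. The proline transporter Slc6a7 was at 3.21 and 3.32 CPM in naive mESCs, 0 and 0.197 in EpiLCs, 2.47 and 2.02 in early and 0 and 0 CPM in late gastruloids. It alternated between detected and nearly absent groups, and with no count in late gastruloids the early ones were at least 5.64-fold higher. Slc6a17 was at 0 and 0.269 CPM in naive mESCs, 0.739 and 0.790 in EpiLCs, 2.17 and 2.199 in early and 5.14 and 3.43 CPM in late gastruloids, lowest in naive mESCs, whereas human SLC6A17 was highest in naive H9. Slc6a13, a GABA carrier, had no count in naive mESCs and was at least 4.52-fold higher in EpiLCs, and the serotonin transporter Slc6a4 had 2 counts in early and 19 in late gastruloids, a ratio of 19.7, with a 95% counting interval of 4.74 to 174. Slc1a6, Slc6a11, Slc6a16, Slc7a4 and Slc38a6 stayed under 10 CPM in every mouse sample.

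The change of each step was then compared between the species by an interaction test over 14007 genes of the same symbol, of which 46 were members. It used EpiLCs as the mouse primed state. From naive to primed, the mouse change was higher than the human in 15 members and lower in 11, where 23.2% and 19% of all matched genes were called. From primed to early it was higher in 24 and lower in 1, beside 19.7% and 12.9%, and the median difference over the members was 1.22 against -0.00 over all matched genes. From early to late it was higher in 10 and lower in 9, beside 18.7% and 16.7%. The primed to early difference carries the primed RUES2_GLR group, in which the mitochondrial share was high, and cell line, medium, retinoic acid and sampling time differ between the species as well. These cannot be told apart from species.

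**Figure D5:**
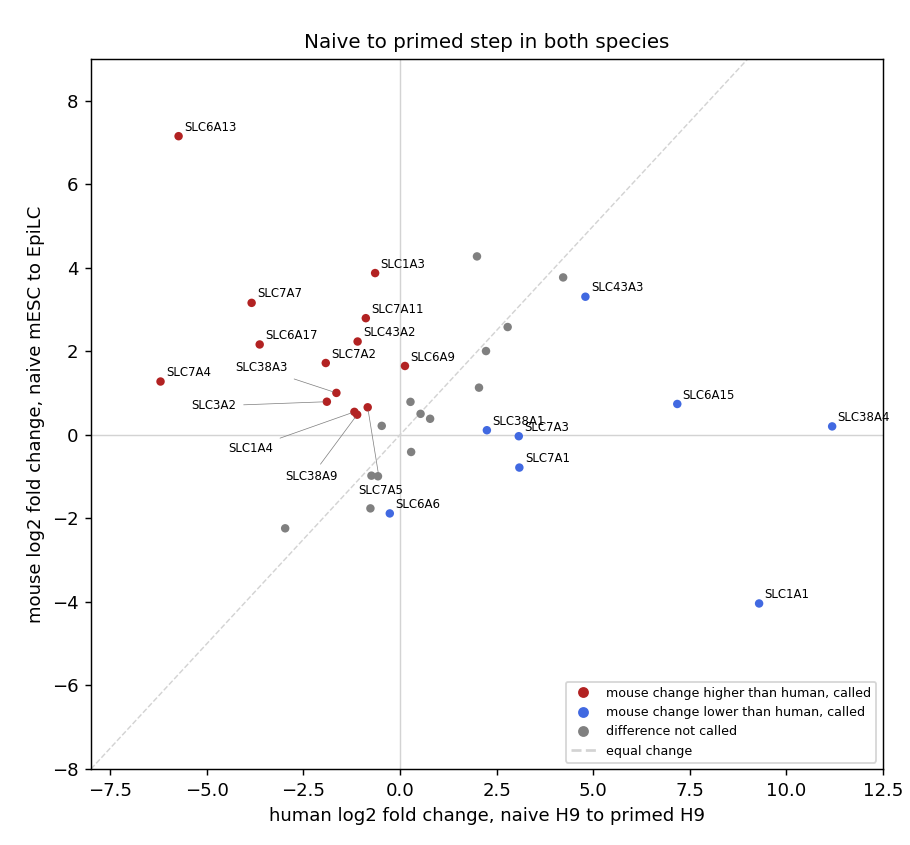
Log2 fold change from naive to primed in human (x axis) and mouse (y axis) for the reported members tested in both species, coloured where the difference was called. SLC7A7 lies in the upper left, lower in primed H9 and higher in EpiLCs, and SLC1A1 lies in the lower right. The fitted changes of SLC6A13 and SLC38A4 rest on groups without counts.

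Other genes of amino acid supply were counted on 5 lists that exclude the members. For each list the numbers called higher and lower are given in that order, with the median log2 fold change in parentheses. Beside them, the shares of all tested genes called higher and lower were 25.5% and 22.3% from naive to primed H9, 17.1% and 12.2% from primed H9 to RUES2_GLR, 12% and 17.6% from RUES2_GLR to early and 11.8% and 13.2% from early to late RA-gastruloids. The mouse shares were 17.7% and 12.1% from naive mESCs to EpiLCs, 16.2% and 6.81% from naive mESCs to early gastruloids, 11.7% and 9.24% from EpiLCs to early and 20.1% and 19.1% from early to late gastruloids. None of the lists was tested as a set.

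Of 33 tested human targets of ATF4, the factor that answers amino acid shortage, the counts were 3 and 16 (-0.74) from naive to primed H9, 5 and 1 (-0.31) from primed H9 to RUES2_GLR, 2 and 10 (-0.41) from RUES2_GLR to early and 0 and 11 (-0.69) from early to late RA-gastruloids. Of 33 in mouse they were 7 and 1 (0.28) from naive mESCs to EpiLCs, 1 and 7 (-0.41) from naive mESCs to early gastruloids, 0 and 12 (-0.71) from EpiLCs to early and 0 and 19 (-1.31) from early to late gastruloids. Amino acid carriers outside the 7 families, 23 tested in human, gave 5 and 6 (-0.43) from naive to primed H9, 6 and 1 (0.27) from primed H9 to RUES2_GLR, 1 and 6 (-0.64) from RUES2_GLR to early and 2 and 5 (-0.54) from early to late RA-gastruloids. The 20 in mouse gave 3 and 8 (-0.46) from naive mESCs to EpiLCs, 3 and 3 (-0.02) from naive mESCs to early gastruloids, 5 and 1 (0.17) from EpiLCs to early and 1 and 5 (-0.21) from early to late gastruloids. For genes of serine, glycine and one-carbon synthesis, 18 tested in human, they were 2 and 3 (-0.26) from naive to primed H9, 2 and 3 (-0.32) from primed H9 to RUES2_GLR, 1 and 2 (0.10) from RUES2_GLR to early and 0 and 4 (-0.33) from early to late RA-gastruloids. For the 19 in mouse they were 2 and 3 (-0.03) from naive mESCs to EpiLCs, 0 and 4 (-0.54) from naive mESCs to early gastruloids, 2 and 6 (-0.39) from EpiLCs to early and 1 and 6 (-0.81) from early to late gastruloids.

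Genes of glutathione synthesis and cystine handling, which use what SLC7A11 imports, gave these counts over 22 tested human genes: 0 and 7 (-0.68) from naive to primed H9, 1 and 4 (-0.51) from primed H9 to RUES2_GLR, 2 and 3 (0.22) from RUES2_GLR to early and 1 and 5 (-0.49) from early to late RA-gastruloids. Over 19 mouse genes they gave 1 and 5 (-0.26) from naive mESCs to EpiLCs, 0 and 3 (-0.48) from naive mESCs to early gastruloids, 1 and 3 (-0.11) from EpiLCs to early and 0 and 12 (-1.43) from early to late gastruloids. The lysosomal sensing genes upstream of mTORC1, the pathway of SLC38A9, gave 3 and 10 (-0.42) from naive to primed H9, 2 and 1 (-0.46) from primed H9 to RUES2_GLR, 5 and 2 (0.42) from RUES2_GLR to early and 2 and 3 (-0.08) from early to late RA-gastruloids, over 42 tested human genes. In mouse, over 41 genes, they gave 2 and 2 (-0.09) from naive mESCs to EpiLCs, 2 and 1 (-0.01) from naive mESCs to early gastruloids, 5 and 1 (0.16) from EpiLCs to early and 1 and 9 (-0.21) from early to late gastruloids.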

How the data were processed

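Polyadenylated RNA was sequenced from 18 samples, 2 biological replicates in each of 9 groups. The deposited values were raw read counts per gene, 1 table per species: the authors made the reads with bcl2fastq 2.20 and removed adapters and poor bases by Trimmomatic 0.39, some libraries as read pairs and some as single reads. STAR placed the reads on the GRCh38 and GRCm39 genomes, and featureCounts, at its default settings, assigned them to genes without regard to strand. The annotation release is not given in the sources used here, nor is which libraries were read in which mode, and both could move counts of overlapping genes. Symbols were taken by gene identifier from GENCODE releases 44 and 39 (mouse), and sequences from RefSeq.

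The counts were fitted with edgeR 4.0.16 (R 4.3.3), 1 quasi-likelihood fit per species with 1 coefficient per group, TMM scaling and the filterByExpr filter, and p-values were adjusted by Benjamini-Hochberg over all genes tested. The interaction fit joined both species on genes of the same symbol. The fits were tested on simulated data. DESeq2 1.42.0, other scalings, no filter, the compared groups alone, adjusted p alone, the replicate number as a block and each replicate left out were tried, and leaving out the genes of the mitochondrial genome was added after seeing the data. CPM used TMM-scaled library sizes, and intervals and the floor of 3 counts per library cover counting error only.

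The members and all gene lists were chosen with earlier results of these data known. Genes named were a core list of transporters, up to 3 rises and 3 falls per comparison whose higher group averaged 5 CPM or more and whose replicates did not overlap, and the 10 most abundant members per species. Others are said to be chosen after their values were seen. The results of 1 member, which is included in the counts over members, are not reported here.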

Additional observations from a re-analysis of the deposited data

Results flagged for a closer look

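For 11 steps a reported member was called in opposite directions in the species and the interaction test called the difference. Members with opposite signs but no call in at least 1 species, such as SLC3A2 and SLC7A1 from naive to primed, are not listed here. The difference is given as mouse minus human. From naive to primed it was -13.22 for SLC1A1, which rose in human and fell in mouse. It was 7.11 for SLC7A7, 2.76 for SLC38A3, 3.44 for SLC43A2, 3.75 for SLC7A2, 5.92 for SLC6A17, 7.55 for SLC7A4 and 13.01 for SLC6A13, which were lower in primed H9 and higher in EpiLCs. From primed to early gastruloids it was 4.02 for SLC1A1 and 3.60 for SLC6A8, and from early to late 3.26 for SLC7A8, each lower in human and higher in mouse. The mouse primed to early step is taken from EpiLCs, which were not the source of the gastruloids. From naive mESCs to early gastruloids the mean of Slc1a1 went from 3.15 to 0.782 CPM. That of Slc6a8 went from 552 to 371 CPM, under the fold limit, so both were lower, as in human. The values of SLC1A1, SLC6A13, SLC6A17 and SLC7A4 rest on groups with few or no counts and depend on the prior count, so they are no measure of size. The mouse call of SLC38A3 lay at the fold limit (1.007) and was lost with the replicate block. The mouse call of SLC1A1 between EpiLCs and early gastruloids was lost with DESeq2. Both of these opposite directions thus depend on the processing.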

How the results depend on the processing

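Of 256 pairs of a named gene and a comparison, 134 were called, and over 2820 values under the alternatives none reversed, 19 lost a call and 26 gained one. Of the 134 calls, DESeq2 lost 2 and the unfiltered fit lost 1. Calls near the fold limit of 1 log2 unit, and those of genes with few counts, are the ones that a left-out replicate ended. By adjusted p alone, without the fold limit, more members passed: 22 lower from naive to primed H9, 2 higher from RUES2_GLR to early RA-gastruloids, 10 higher and 23 lower from early to late RA-gastruloids, 10 lower from naive mESCs to EpiLCs, 15 lower from naive mESCs to early gastruloids, 10 higher and 23 lower from EpiLCs to early, and 12 higher and 20 lower from early to late mouse gastruloids. The single rise from RUES2_GLR to early RA-gastruloids was 2 with no filter, 2 with the replicate block, and 1 to 4 with a replicate left out. The replicate block ended the call of Slc38a3 from naive mESCs to EpiLCs (log2 fold change 0.998) and no other named call. Deviations of samples with the same number correlated at -0.11 to 0.07 in human and gave no sign that the numbers pair the samples. They were taken over all tested genes, where counting error of low genes can hide a shared deviation, so pairing is not excluded.

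The summed level of the members, given above both as TMM-scaled CPM and in TPM, moved with the scale. As TMM-scaled CPM it was 5438 in naive H9, 4207 in primed H9, 7322 in RUES2_GLR, 1972 in early and 1423 in late RA-gastruloids, 4604 in naive mESCs, 5084 in EpiLCs, 3429 in early and 1968 in late gastruloids. In TPM without the genes of the mitochondrial genome it was 3612, 3999, 6260, 1615 and 1118 in the human and 3226, 4146, 2675 and 1437 in the mouse groups, in the same order. The depth of RUES2_GLR replicate 2 limits what can be seen of low members there.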
